A study of Rattus norvegicus with 28 samples.

Results

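The homeostatic microglial identity genes described here are 7 genes that mark resident microglia in the undisturbed brain: P2ry12, P2ry13, Gpr34, Tmem119, Sall1, Mef2c and Olfml3. They were found by exact gene symbol, and all 7 were listed in each of the 28 count tables, among 23139 genes listed for microglia and 20268 and 20056 for the ENV and LPS sets of astrocyte cultures. All libraries came from primary cells of Wistar rat cortex taken at postnatal day 1 and grown for 10 days in flasks with 10% fetal calf serum. Microglia were shaken off these flasks and sorted with magnetic beads against CD11b/c, and the cultures labelled astrocytes came from the same kind of flask. Microglia were treated 1 day and astrocyte cultures 3 days after isolation. The 8 groups were buffer, recombinant HERV-W ENV (1 µg/ml), which is an envelope protein encoded by an endogenous retrovirus of humans, H2O and the bacterial cell wall component lipopolysaccharide (LPS, 100 ng/ml), in microglia (3 libraries a group) and in astrocyte cultures (4 a group). ENV was set against buffer and LPS against H2O. All groups share the serum and the growth in flasks, and groups of the same cell type share the isolation step. No source used here gives the duration of treatment or the litters behind the replicates.

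Microglia hold their resting state through signals from the surrounding brain, with TGF-beta and ligands of the CSF1 receptor the best known. P2ry12 and P2ry13 encode ADP receptors coupled to inhibitory G proteins; P2Y12 steers microglial processes towards sites that release nucleotides and is a standard stain for resting microglia. Gpr34 encodes a related receptor for lysophosphatidylserine. Sall1 and Mef2c encode transcription factors, of which Sall1 holds the resident microglial program and Mef2c restrains inflammatory responses of microglia. Tmem119 encodes a membrane protein used as a microglial marker, and Olfml3 a secreted olfactomedin-like protein. Outside microglia, Sall1 is known from neural progenitors and kidney, Mef2c from neurons and muscle, and Tmem119 from bone-forming cells.

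RefSeq sequence upstream of the annotated start (build GRCr8, a later assembly than that of the counts) was at hand for 3 of the 7 genes: Gpr34, P2ry13 and Olfml3. They are shown because Gpr34 and P2ry13 were high in microglia and low in astrocyte cultures, while Olfml3 had the opposite distribution. Each is the 250 bases before the start, read 5′ to 3′ on the gene's strand (minus in all), at chrX:11785837-11786086, chr2:145622785-145623034 and chr2:193935495-193935744. Capitals mark matches to the searched motifs.
Gpr34: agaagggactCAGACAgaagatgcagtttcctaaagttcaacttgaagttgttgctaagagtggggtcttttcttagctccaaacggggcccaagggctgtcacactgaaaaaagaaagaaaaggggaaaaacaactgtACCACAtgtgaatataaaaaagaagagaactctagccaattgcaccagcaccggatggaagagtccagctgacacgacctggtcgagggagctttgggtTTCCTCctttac
P2ry13: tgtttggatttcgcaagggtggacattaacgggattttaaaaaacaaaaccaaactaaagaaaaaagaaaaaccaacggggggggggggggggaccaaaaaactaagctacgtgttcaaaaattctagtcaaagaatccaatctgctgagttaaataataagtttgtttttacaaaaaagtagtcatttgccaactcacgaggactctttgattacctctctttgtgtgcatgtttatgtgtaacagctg
Olfml3: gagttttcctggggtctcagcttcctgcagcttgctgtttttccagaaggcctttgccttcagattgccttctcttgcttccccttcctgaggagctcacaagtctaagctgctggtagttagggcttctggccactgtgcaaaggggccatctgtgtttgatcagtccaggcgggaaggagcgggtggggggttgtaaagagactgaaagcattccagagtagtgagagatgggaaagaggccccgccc
In Gpr34 the first capitals match the SMAD motif CAGACA, the next the RUNX core TGTGGT on the opposite strand, and the last the PU.1 core GAGGAA on the opposite strand, 12 bases before the start. These motifs occurred in 17.2%, 14.5% and 23.3% of all 33469 upstream windows of this length, searched on both strands. The other searched motifs were the PU.1 and IRF composite, GGAA and GAAA with 2 bases of any kind between them (2.48% of windows), and the MEF2 consensus (2.96%), and neither occurred in any of the 3. No searched motif was found in the P2ry13 or Olfml3 window. A match is a stretch of letters and was not tested as a binding site.

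Libraries held 26513999 to 42724111 counts in microglia and 23742228 to 35326938 in astrocyte cultures, so that a count of 0 allows up to 0.0702 to 0.126 CPM (counts per 1000000 counts of the library; the floor is 3 counts and covers counting error only). Summed RNA of 20 core microglia and macrophage markers, such as Aif1, Itgam and the C1q genes, ran from 13368 to 22248 CPM in microglia and from 184 to 1476 CPM in astrocyte cultures. Border and perivascular macrophage markers (9 of 10 listed) summed to 2287 to 4319 CPM in microglia and 48.4 to 225 CPM in astrocyte cultures. The part of such macrophages in the levels of the 7 genes was not tested. The astrocyte cultures held 2616 to 11654 CPM of 10 summed astrocyte markers and also 1644 to 11004 CPM of 10 fibroblast and mural cell markers. Microglial H2O replicate 3 and LPS replicate 3 stood apart from replicates 1 and 2 of their groups in several of the 7 genes. The LPS changes of the tested genes in microglia are therefore also given without them. Because the same genes marked these 2 libraries, calls made without them show dependence on the libraries and are no independent support. In the H2O group, summed oligodendrocyte lineage markers were 16.7, 17.1 and 179 CPM in replicates 1, 2 and 3, and summed astrocyte markers 62.8, 76.1 and 285 CPM. LPS replicate 3 had the lowest core marker sum of the 12 microglial libraries (13368 CPM). Between the vehicle groups, none of the 7 genes and none of all tested genes (0%) passed edgeR's adjusted threshold of 0.05 in microglia or in astrocyte cultures. At an unadjusted p under 0.05, 1946 and 125 genes differed, and DESeq2 called 682 and 0; vehicle and set cannot be told apart. Fibroblast and mural cell sums of buffer and H2O astrocyte cultures were close in replicates 3 (10604 and 10305 CPM) and 4 (2755 and 2912 CPM). They were not in replicates 1 (8057 and 3456 CPM) and 2 (11004 and 5927 CPM). Whether the 2 astrocyte sets share cultures was not tested, and they may not be independent.

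**Figure D1:**
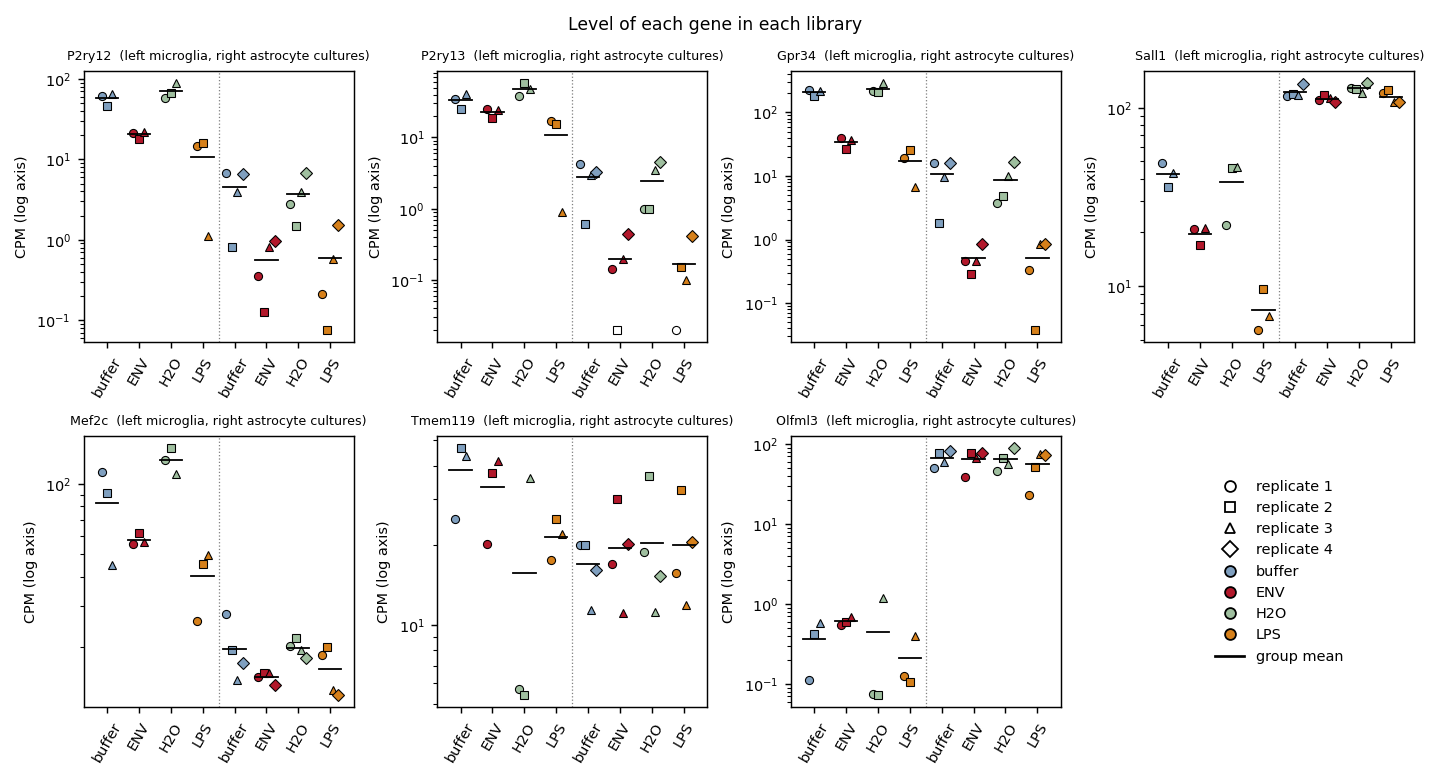
Level of each of the 7 genes in every library, in CPM on a log axis, with microglia left and astrocyte cultures right of the dotted line; bars are group means, symbols give the replicate number, and open symbols are libraries with 0 counts, drawn at 0.02. P2ry12, P2ry13 and Gpr34 lie higher in vehicle-treated microglia than in any astrocyte culture, Sall1 and Olfml3 lie higher in every astrocyte culture than in any microglial library, and Tmem119 overlaps.

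In microglia given ENV, Gpr34, P2ry12 and Sall1 fell, and the other 4 genes did not pass the test. The 3 genes called lower of 7 stand beside 14.7% of all 12844 tested genes called lower and 30.9% called in either direction. With LPS, Gpr34, Sall1 and Mef2c fell, 3 of the 6 genes that could be tested, beside 13.8% of 12229 genes called lower and 29.8% called in either direction. Olfml3 did not pass the filter on low counts in the LPS comparison. None of the 7 was called higher in either comparison; 16.2% and 16.0% of all genes were called higher. The median log2 change of the 7 with ENV was -0.36, that of the 6 with LPS -1.94, against -0.03 and -0.02 for all tested genes. Marker sums of the oligodendrocyte lineage and of astrocytes also stood lower in treated microglia. For the oligodendrocyte lineage the means were 136 CPM (ENV) against 317 CPM (buffer) and 15.2 CPM (LPS) against 70.8 CPM (H2O). For astrocytes they were 167 against 264 CPM and 32.6 against 141 CPM. Sums of granulocyte and blood monocyte markers stood higher, at 326 against 39.2 CPM and 241 against 5.46 CPM. Those of endothelial markers did too, at 178 against 80.3 CPM and 200 against 110 CPM. The part of these shifts in the changes of the 7 genes was not tested.

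Gpr34, the lysophosphatidylserine receptor gene, fell the furthest of the 7 with either stimulus. It was at 227, 182 and 217 CPM with buffer and at 38.98, 26.1 and 37.3 CPM with ENV (replicates 1, 2 and 3). The change was -2.41 ± 0.21 on the log2 scale (± SE here and below; adjusted p = 4.50e-04). With H2O it stood at 216, 207 and 291 CPM and with LPS at 19.4, 25.5 and 6.78 CPM, a change of -3.48 ± 0.49 (adjusted p = 0.00613). In both sets every treated library lay below every vehicle library, and LPS replicate 3 was the lowest of all. Without both replicates 3 the LPS change was -2.96 and was still called. Gpr34 lies within the span of Cask in RefSeq, and reads of overlapping genes may be shared where the counting did not use strand; Cask itself was called in neither comparison.

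P2ry12 was at 61.2, 46.4 and 64.6 CPM with buffer and at 21.5, 18.0 and 21.8 CPM with ENV. The fall of 1.29 ± 0.18 on the log2 scale (adjusted p = 0.00287) kept the ranges apart, but it was not called when all 4 microglial groups shared one estimate of the spread (adjusted p = 0.178). With H2O the 3 libraries were at 58.0, 66.9 and 89.0 CPM and with LPS at 14.8, 15.8 and 1.13 CPM. The groups did not overlap, yet the log2 change of -2.43 ± 0.85 missed the threshold (adjusted p = 0.0741). LPS replicate 3 lay far below its companions. Without it the change was -1.90 (adjusted p = 0.00283), and without both replicates 3 the change was -1.74 (adjusted p = 0.00123). DESeq2 also called it (-2.42, adjusted p = 0.00476), as did the joint fit of the 4 groups (adjusted p = 0.0144). It was not called with the replicate number as a block (adjusted p = 0.0859) or with no filter on low counts (adjusted p = 0.0938). Nor was it called without any single library other than LPS replicate 3 (highest adjusted p 0.165).

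P2ry13, the neighbour of P2ry12 on chromosome 2, moved less with ENV. Its levels were 35.2, 25.3 and 40.8 CPM with buffer and 25.5, 18.7 and 24.5 CPM with ENV, overlapping ranges with a log2 change of -0.36 ± 0.23 (adjusted p = 0.275). In the LPS set it stood at 37.9, 58.2 and 47.4 CPM with H2O and at 16.9, 15.2 and 0.893 CPM with LPS. Here the ranges parted, with a log2 change of -1.80 ± 0.90 that missed the threshold (adjusted p = 0.175). Without LPS replicate 3 it was -1.26 (adjusted p = 0.0106), and without both replicates 3 -1.29 (adjusted p = 0.0135). DESeq2 (adjusted p = 0.0632), the joint fit of the 4 groups (adjusted p = 0.0661) and the replicate block (adjusted p = 0.124) did not call it. Both ADP receptor genes lie within the span of Med12l, which was called in neither microglial comparison.

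**Figure D2:**
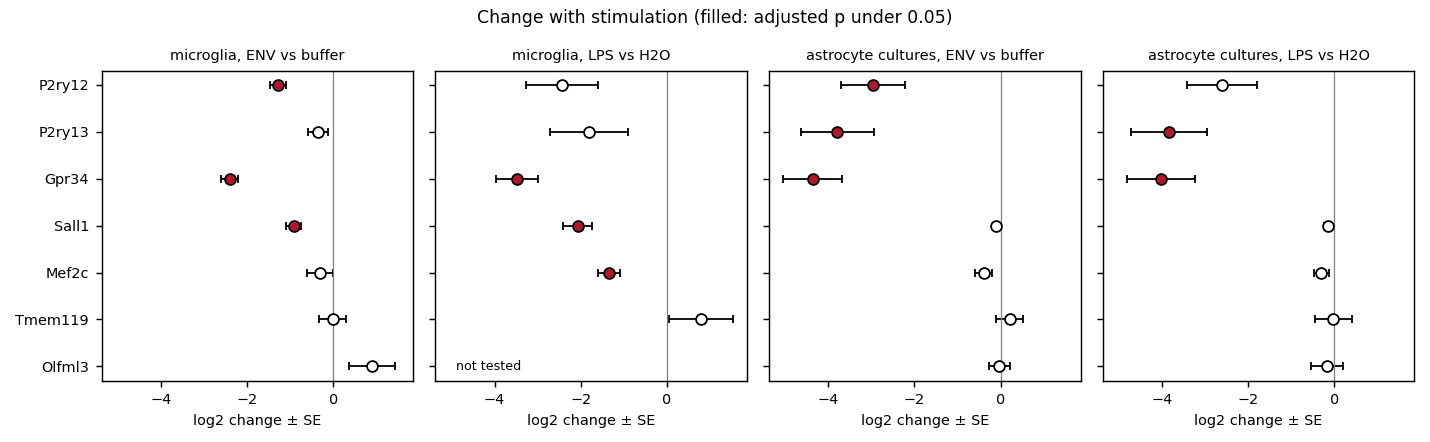
Log2 change ± SE of each gene with ENV against buffer and LPS against H2O in microglia and in astrocyte cultures; filled points have an edgeR adjusted p under 0.05. In microglia the called changes are falls of Gpr34 and Sall1 in both panels, P2ry12 with ENV and Mef2c with LPS, and in astrocyte cultures falls of P2ry13 and Gpr34 in both panels and P2ry12 with ENV.

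Sall1, the transcription factor of the resident program, was at 48.8, 36.1 and 42.9 CPM with buffer and at 20.8, 16.9 and 21.2 CPM with ENV. The log2 change was -0.92 ± 0.17 (adjusted p = 0.00875) and the groups did not overlap. With H2O it stood at 21.9, 46.0 and 46.8 CPM and with LPS at 5.67, 9.58 and 6.75 CPM, a change of -2.08 ± 0.34 (adjusted p = 0.00852). Here H2O replicate 1 lay low among the vehicles, but above all LPS libraries. Without both replicates 3 the LPS change was -1.88 (adjusted p = 0.0253). Since astrocyte cultures carried more Sall1 than microglia did, the astrocyte marker sum bears on this gene: in buffer-treated microglia it was 2.66% of its level in buffer-treated astrocyte cultures. Sall1 RNA in that proportion would come to 3.25 CPM, against 42.6 ± 6.34 CPM measured (SD, n = 3). The proportions with ENV, H2O and LPS were 2.60%, 1.70% and 0.614%, and the corresponding values 2.93, 2.19 and 0.707 CPM. Measured were 19.6 ± 2.38, 38.2 ± 14.2 and 7.33 ± 2.02 CPM (SD, n = 3). The part of astrocyte culture RNA in the Sall1 changes was not tested.

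Mef2c, the second transcription factor of the set, spread widely with buffer, at 112, 91.2 and 44.7 CPM, against 55.3, 61.4 and 56.1 CPM with ENV. Buffer replicate 3 lay below all ENV libraries, so the groups overlapped (log2 change -0.32 ± 0.30, adjusted p = 0.452). Without that library the change was -0.61 and was called (adjusted p = 0.0120). With H2O, Mef2c stood at 126, 142 and 111 CPM and with LPS at 25.8, 45.2 and 49.7 CPM, a fall of 1.35 ± 0.25 on the log2 scale (adjusted p = 0.0129). The ranges were well apart, though the call was lost without H2O replicate 1 (adjusted p = 0.0546) or H2O replicate 2 (adjusted p = 0.0539). Without both replicates 3 it was -1.65 (adjusted p = 0.00868).

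Tmem119 differed from the 5 genes above. It was at 25.1, 46.6 and 43.5 CPM with buffer and at 20.2, 37.6 and 41.7 CPM with ENV, with a log2 change of -0.02 ± 0.31 (adjusted p = 0.968). Replicate 1 was the lowest in both groups. In the H2O group replicates 1 and 2 held 5.73 and 5.42 CPM and replicate 3 held 35.9 CPM, while the LPS libraries held 17.6, 25.1 and 22.1 CPM. The resulting log2 change, 0.79 ± 0.74, was not called (adjusted p = 0.451). Without H2O replicate 3, Tmem119 was called higher with LPS, by 2.23 (adjusted p = 0.00556), and without both replicates 3 by 2.21 (adjusted p = 0.00208).

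The vehicle difference of Tmem119 depended on the same library. Buffer minus H2O was 1.21 ± 0.76 with all libraries (adjusted p = 0.446) and 2.63 without H2O replicate 3 (adjusted p = 0.00379), where 1650 genes were called in place of 0. Over the vehicle libraries, Tmem119 was high where oligodendrocyte and astrocyte marker sums were high. Those sums were 303 to 336 CPM and at least 240 CPM with buffer, and, as given above, low in H2O replicates 1 and 2 and higher in H2O replicate 3. With ENV, oligodendrocyte markers were at 81.3, 169 and 157 CPM and astrocyte markers at 116, 147 and 237 CPM, lower than with buffer in every library, while Tmem119 was not called. With LPS, Tmem119 stood above H2O replicates 1 and 2 while oligodendrocyte markers were at 5.04, 5.43 and 35.2 CPM and astrocyte markers at 45.5, 24.5 and 27.8 CPM. RNA of the astrocyte cultures, which hold other cell types too, was scaled by the astrocyte markers. It would hold 0.451 CPM of Tmem119 in the buffer group, against 38.4 ± 11.6 CPM measured (SD, n = 3). Summed fibroblast and mural cell markers were 2.08 to 15.7 CPM in the 12 libraries, with Rgs5 at 0 in all of them. The part of the oligodendrocyte lineage in the Tmem119 level was not tested.

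**Figure D3:**
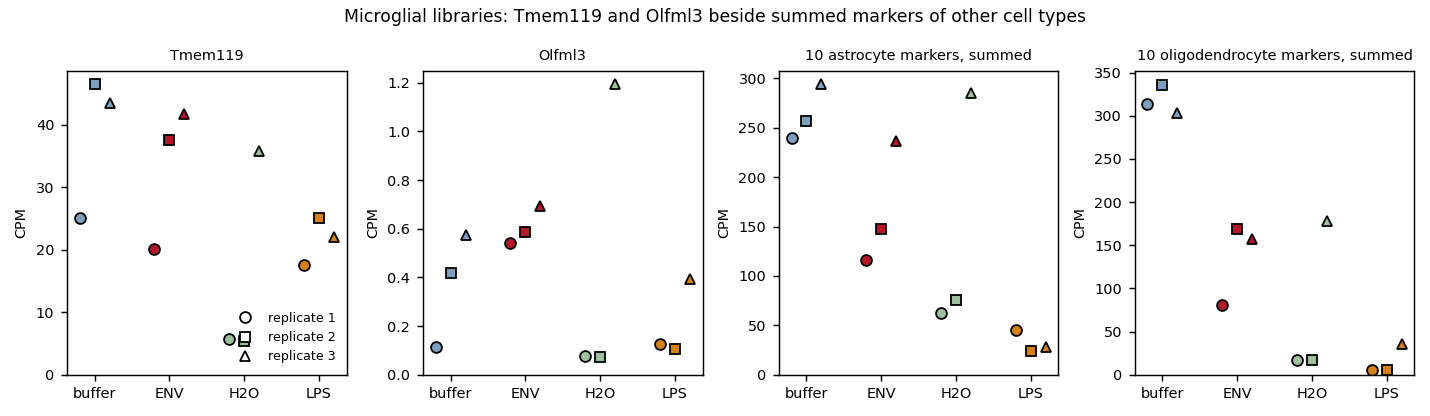
Tmem119, Olfml3, summed astrocyte markers and summed oligodendrocyte lineage markers in the 12 microglial libraries, in CPM on linear axes from 0; symbols give the replicate number. H2O replicate 3 lies above H2O replicates 1 and 2 in all 4 panels, and the LPS libraries are low in both marker panels while Tmem119 is at 17.6 to 25.1 CPM.

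Olfml3 was close to the detection floor in microglia. Its counts were 3, 12 and 17 with buffer, 15, 18 and 21 with ENV, 3, 3 and 51 with H2O, and 5, 4 and 15 with LPS. The ENV change of 0.90 ± 0.52 on the log2 scale was not called (adjusted p = 0.234). H2O replicate 3 again stood out, at 1.19 CPM against 0.0757 and 0.0726 CPM. The buffer group mean of 0.369 CPM lies below the 1.78 CPM that astrocyte culture RNA would carry in proportion to the astrocyte markers. Means with ENV (0.607 against 1.69 CPM), H2O (0.447 against 1.09 CPM) and LPS (0.208 against 0.342 CPM) also lay below that proportion. Such proportions are thus rough, and this limit holds for those of Sall1 and Tmem119 as well.

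The ENV and LPS responses of microglia were compared by an interaction term. The ENV change minus the LPS change was 1.11 ± 0.52 for Gpr34, 1.19 ± 0.89 for P2ry12, 1.49 ± 0.98 for P2ry13, 1.19 ± 0.39 for Sall1, 1.07 ± 0.44 for Mef2c and -0.81 ± 0.86 for Tmem119. None passed the adjusted threshold in edgeR (lowest adjusted p = 0.666, Sall1), nor did any of 13270 genes (0%). Without adjustment, 937 genes had a p under 0.05, Sall1 and Mef2c among them, and DESeq2 called 67 genes. Without both replicates 3 of the LPS set, a choice made after seeing the data, the difference was 0.38 for P2ry12, 0.47 for Gpr34, 0.86 for P2ry13 and -2.31 for Tmem119, still not called. The sets differ in vehicle.

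Before stimulation, the 7 genes fell into distinct patterns when astrocyte cultures were set against microglia. All 7 differed in the buffer set, where 70% of 12984 tested genes were called, and 6 in the H2O set, where 70.9% of 12916 were called. P2ry12, P2ry13, Gpr34 and Mef2c were higher in microglia in both sets, as were 33.6% and 33.2% of all genes. Sall1 and Olfml3 were lower, as were 36.4% and 37.7%. Tmem119 was called higher in microglia in the buffer set (1.55 ± 0.28, adjusted p = 0.00151) and not in the H2O set (0.09 ± 0.75, adjusted p = 0.919), where it was lower without microglial H2O replicate 3 (-1.35, adjusted p = 0.0431); the difference between the sets was not tested. Cell type, preparation and time after isolation cannot be told apart in these comparisons.

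The 3 receptor genes were present in astrocyte cultures at a few percent of their microglial level. With buffer, P2ry12 was at 6.75, 0.814, 3.95 and 6.54 CPM in the 4 astrocyte cultures, P2ry13 at 4.20, 0.602, 3.01 and 3.31 CPM, and Gpr34 at 16.0, 1.84, 9.51 and 16.1 CPM. Replicate 2 was the lowest for each receptor, and it also had the lowest core marker sum of the buffer group (278 CPM, against 928 to 1454 CPM in the others). As a share of the microglial mean this came to 7.86% for P2ry12, 8.24% for P2ry13 and 5.21% for Gpr34. In the H2O set the shares were 5.25%, 5.21% and 3.68%. The 20 core markers had a median share of 4.36% with buffer (from 1.31% for Cd68 to 27.3% for Cx3cr1) and 3.85% with H2O (from 1.05% for Cd68 to 41.8% for Cx3cr1). The microglia-minus-astrocyte difference was 4.06 ± 0.57, 3.99 ± 0.52 and 4.66 ± 0.62 on the log2 scale in the buffer set (adjusted p = 3.59e-04, 2.36e-04 and 2.63e-04) for P2ry12, P2ry13 and Gpr34. In these bulk cultures, fewer microglia and less of their RNA per cell cannot be told apart.

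Tmem119, Sall1 and Olfml3 lay above the share of every core marker in both sets, and Mef2c above that of every one but Cx3cr1. In the buffer set the astrocyte culture level of Mef2c was 23.7% of the microglial one, that of Tmem119 44.1%, of Sall1 287% and of Olfml3 18143%. The H2O set gave 15.6%, 131%, 337% and 14360%, the Tmem119 value resting on a microglial group that holds replicates at 5.42 and 35.9 CPM. With TMM scaling all these shares were lower, at 18.4%, 34.0%, 220.0% and 13831% in the buffer set and 10.9%, 93.0%, 235% and 10188% in the H2O set, so that Tmem119 in the H2O set changed sides of 100%. The receptor shares were then 5.94%, 6.23% and 3.93% with buffer and 3.63%, 3.59% and 2.54% with H2O for P2ry12, P2ry13 and Gpr34. If microglial RNA were present in proportion to the core marker sum, at 5.38% of the buffer-treated microglial value, the astrocyte cultures would hold 3.09 CPM of P2ry12, 1.82 of P2ry13 and 11.2 of Gpr34. Measured means were 4.51 ± 2.78, 2.78 ± 1.54 and 10.9 ± 6.76 CPM (SD, n = 4). The same proportion gives 4.46 CPM for Mef2c, 2.07 for Tmem119, 2.30 for Sall1 and 0.0199 for Olfml3, where 19.6 ± 5.73, 16.9 ± 4.15, 122 ± 8.85 and 66.9 ± 14.9 CPM were measured (SD, n = 4). The level of these 4 genes was thus above that proportion by more than the SD. P2ry12 and P2ry13 also lay above that proportion, by less than the SD, and Gpr34 lay slightly below it. The core marker sum differed between libraries too, and this SD does not take that into account. Relative to the core marker sum of the same library, P2ry13 was higher in every buffer-treated astrocyte culture than in any buffer-treated microglial library. For P2ry12 and Gpr34 these ranges overlapped (values below). By their share of the microglial level, the receptor genes and Mef2c lay within the range of the core markers.

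**Figure D4:**
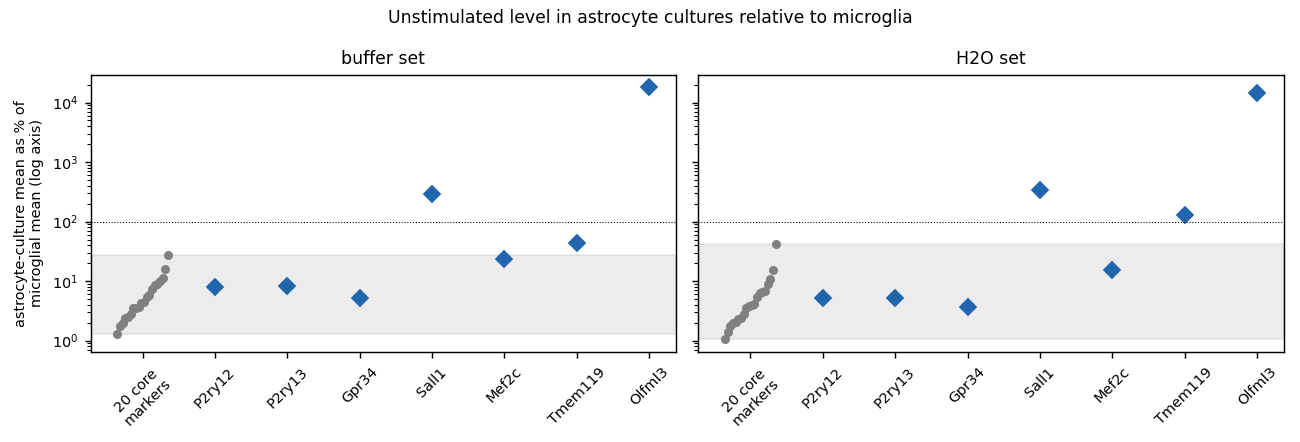
Mean level in vehicle-treated astrocyte cultures as a percentage of the mean in vehicle-treated microglia (log axis), for the 20 core microglial markers (grey points, grey band from lowest to highest) and the 7 genes (diamonds), in the buffer and H2O sets. P2ry12, P2ry13 and Gpr34 sit inside the band at 3.68% to 8.24%, as does Mef2c at 23.7% (buffer) and 15.6% (H2O). Sall1 and Olfml3 sit above the dotted line at 100% in both sets.

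In astrocyte cultures given ENV, the 3 receptor genes fell and the other 4 genes were not called. These 3 of 7 genes stand beside 8.35% of 14941 tested genes called lower, 9.52% called higher and 17.9% called in all. Gpr34 went from the buffer values above to 0.461, 0.283, 0.455 and 0.855 CPM, a log2 change of -4.36 ± 0.68 (adjusted p = 0.00466). P2ry13 went to 0.142, 0, 0.195 and 0.445 CPM, which is 4, 0, 6 and 13 counts, with a change of -3.79 ± 0.85 (adjusted p = 0.0192). P2ry12 went to 0.354, 0.126, 0.813 and 0.958 CPM, with a change of -2.96 ± 0.75 (adjusted p = 0.0295). For P2ry13 and Gpr34 all treated libraries lay below all buffer libraries; for P2ry12, buffer replicate 2 (0.814 CPM) lay within the ENV range. Leaving out single libraries ended the P2ry12 call for 5 of 8 libraries (buffer 1, 3 and 4, ENV 1 and 3; highest adjusted p 0.0827) and the P2ry13 call for 4 (buffer 1 and 3, ENV 1 and 3; highest adjusted p 0.0598). With replicates 1 and 2 only, none of the 7 was called. Med12l, which spans both ADP receptor genes, was itself called lower with ENV (-0.52 ± 0.10, adjusted p = 0.0109).

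With LPS, Gpr34 and P2ry13 were called lower in astrocyte cultures, 2 of 7 genes beside 2.69% of 14710 tested genes (2.64% were called higher and 5.34% in all). Gpr34 was at 3.75, 4.84, 9.85 and 16.6 CPM with H2O and at 0.337, 0.0380, 0.837 and 0.856 CPM with LPS (-4.02 ± 0.79, adjusted p = 0.0279). P2ry13 was at 0.982, 1.01, 3.46 and 4.51 CPM with H2O and at 0, 0.152, 0.1004 and 0.408 CPM with LPS (-3.84 ± 0.88, adjusted p = 0.0457). Both had every treated library below every vehicle library. P2ry12 was at 2.81, 1.49, 3.93 and 6.75 CPM with H2O and at 0.211, 0.0761, 0.569 and 1.51 CPM with LPS, where replicate 4 just overlapped the vehicle range. Its change of -2.61 ± 0.82 missed the threshold (adjusted p = 0.115). With the replicate number as a block it was called (-2.91 ± 0.39, adjusted p = 0.00765), as 2611 genes were in place of 785. The block also raised the number of called genes with ENV from 2670 to 4348. Without the block, omitting any 1 of the 8 libraries ended the P2ry13 call (highest adjusted p 0.131), and omitting H2O replicate 2, 3 or 4 or LPS replicate 1, 3 or 4 ended that of Gpr34 (highest adjusted p 0.0857).

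The remaining 4 genes were not called in astrocyte cultures with either stimulus. Sall1 was at 116 to 135 CPM with buffer and 108 to 119 CPM with ENV (-0.10 ± 0.07), and at 121 to 138 CPM with H2O and 107 to 126 CPM with LPS (-0.14 ± 0.08). Olfml3 was at 50.4 to 82.3 CPM with buffer and 38.3 to 77.4 CPM with ENV (-0.03 ± 0.25), and its log2 change with LPS was -0.17 ± 0.37, with LPS replicate 1 the lowest of its group at 23.1 CPM. Summed fibroblast and mural cell markers, another possible carrier of Olfml3 and Tmem119 RNA, went from a mean of 8105 CPM with buffer to 2558 CPM with ENV; their part in these levels was not tested. Mef2c changed by -0.39 ± 0.20 with ENV and -0.30 ± 0.18 with LPS. Tmem119 changed by 0.21 ± 0.31 and -0.02 ± 0.43. Adjusted p-values for these 8 tests ran from 0.213 to 0.987. For Tmem119, replicate 2 was the highest and replicate 3 the lowest in the ENV, H2O and LPS groups (29.9, 36.6 and 32.4 CPM against 11.1, 11.2 and 11.9 CPM); with buffer, replicates 1 and 2 were both at 20.1 CPM and replicate 3 was again the lowest, at 11.4 CPM.

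Core marker RNA in the astrocyte cultures also stood lower in treated groups, at 184 to 963 CPM with ENV against 278 to 1454 CPM with buffer, and at 196 to 843 CPM with LPS against 460 to 1476 CPM with H2O. Of its 20 genes, 1 was called lower with ENV and none with LPS; the median log2 changes were -0.40 and -0.51. Single core markers moved with treatment in microglia, with Itgam at 281 to 348 CPM with buffer and 781 to 832 CPM with ENV. Cd53 was called lower there with ENV and LPS (-0.55 ± 0.13 and -0.83 ± 0.18). Because the core sum differed between groups, the receptors were also expressed per 1000 core marker counts of the same library. This scale carries such shifts and is not a count of microglia. On that scale Gpr34 was at 6.62 to 11.6 with buffer and 0.581 to 1.54 with ENV, and at 6.52 to 11.2 with H2O and 0.194 to 1.40 with LPS, in astrocyte cultures. In microglia it was at 10.4 to 12.3 with buffer, 1.33 to 1.88 with ENV, 10.7 to 15.0 with H2O and 0.507 to 1.41 with LPS. The Gpr34 ranges of the 2 cultures overlapped in each of these 4 treatments. P2ry12 per 1000 core counts was at 2.93 to 4.89 and 0.447 to 1.25 in astrocyte cultures with buffer and ENV, and at 2.73 to 3.32 and 0.919 to 1.10 in microglia. P2ry13 with ENV was at 0 to 0.462 in astrocyte cultures and 0.953 to 1.24 in microglia, after 2.16 to 3.25 and 1.49 to 1.96 with buffer.

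**Figure D5:**
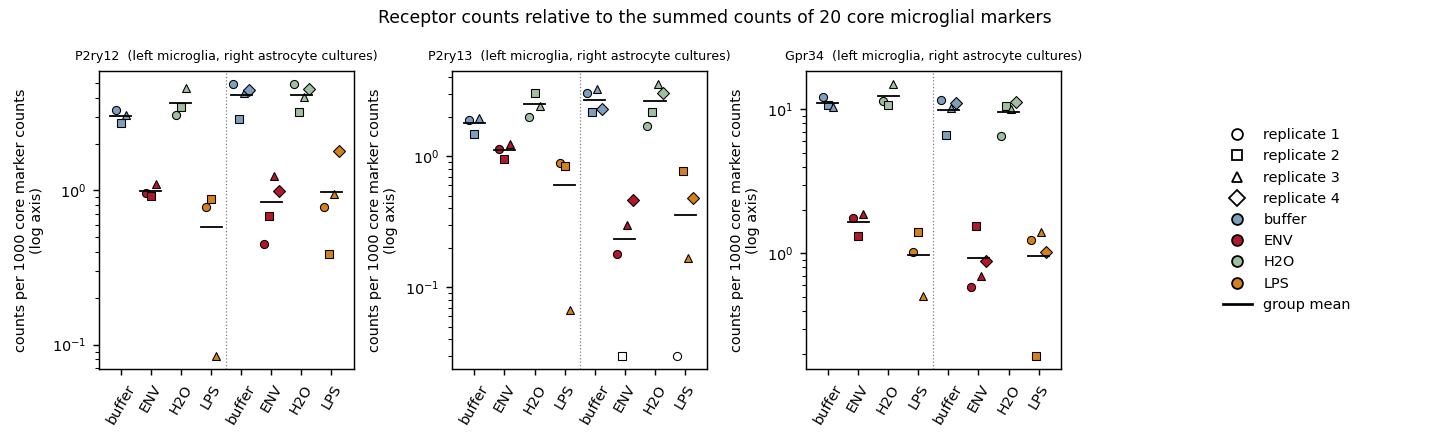
Counts of P2ry12, P2ry13 and Gpr34 per 1000 counts of the 20 summed core microglial markers (log axis) in every library, microglia left and astrocyte cultures right of the dotted line; open symbols are libraries with 0 counts, drawn at 0.03. The Gpr34 ranges of the 2 cultures overlap within each treatment, with ENV at 0.581 to 1.54 in astrocyte cultures and 1.33 to 1.88 in microglia. P2ry13 with ENV lies lower in astrocyte cultures (0 to 0.462) than in microglia (0.953 to 1.24).

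Tested with the core marker sum as library size, P2ry13 (-3.33 ± 0.97, adjusted p = 0.0378) and Gpr34 (-3.46 ± 0.95, adjusted p = 0.0213) were called lower with ENV, beside 0.134% of genes called lower and 1.64% in either direction. With LPS, P2ry13 (-2.92 ± 0.74, adjusted p = 0.0155) and Gpr34 (-3.25 ± 0.65, adjusted p = 0.00106) were called, beside 0.177% called lower, 3.13% called higher and 3.31% in all. P2ry12 was not called (-2.28 ± 0.91, adjusted p = 0.353, and -2.02 ± 0.63, adjusted p = 0.0724). This scale places the median of all genes at 0.67 with ENV and 1.07 with LPS. With the replicate block P2ry12 was called lower as well, by 2.35 ± 0.35 with ENV (adjusted p = 2.31e-04) and by 2.07 ± 0.38 with LPS (adjusted p = 5.30e-04). In that fit Tmem119 (0.78 and 0.97), Sall1 (0.51 and 0.79), Olfml3 (0.56 and 0.66) and, with LPS alone, Mef2c (0.62) were called higher per core marker RNA. It called 10604 and 11438 of all genes, and these rises stand beside the shift of the median gene given above. The unblocked ENV calls of P2ry13 and Gpr34 were lost with 8 core markers in place of 20 (adjusted p = 0.254 and 0.332) and without any 1 of 6 libraries (replicates 1, 3 and 4 of either group; highest adjusted p 0.230). With LPS the P2ry13 call was lost without LPS replicate 1 (adjusted p = 0.0782) or H2O replicate 3 (adjusted p = 0.0560), and P2ry12 was called without LPS replicate 4 (-2.49, adjusted p = 0.0164).

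Whether a gene responded differently in the 2 cultures was tested by an interaction term. For ENV, 2 of the 7 were called, where 14.9% of 13378 genes were (6.87% with a positive and 8.07% with a negative difference). P2ry13 fell further in astrocyte cultures, with the microglial change exceeding that of astrocyte cultures by 3.42 ± 0.86 (adjusted p = 0.0183), and it stayed called without any single library. Sall1 fell further in microglia, by -0.82 ± 0.17 (adjusted p = 0.00673). For Gpr34 (1.95 ± 0.76, adjusted p = 0.105) and P2ry12 (1.67 ± 0.80, adjusted p = 0.187) the difference was not called, although both were without astrocyte buffer replicate 2 (2.39 and 2.10, adjusted p = 0.00437 and 0.0378), the library with the lowest core marker sum of its group. DESeq2 called Gpr34 too (adjusted p = 0.0410). For LPS, Sall1 (-1.96 ± 0.32, adjusted p = 0.00254) and Mef2c (-1.07 ± 0.32, adjusted p = 0.0474) were called, where 12.5% of 13284 genes were (5.32% positive and 7.14% negative) and the median gene stood at -0.12. The Mef2c call was lost without any 1 of 11 libraries (highest adjusted p 0.108) and with no filter on low counts (adjusted p = 0.0502). In astrocyte cultures the ENV and LPS responses of the 7 genes differed by -0.35 to 0.21, none of them called (0% of 15496 genes; 76 at an unadjusted p under 0.05, none of the 7; DESeq2 called 0).

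Among 32 other genes of the homeostatic program, falls outnumbered rises in all 4 treated comparisons. In microglia 13 of 28 tested were called lower and 3 higher with ENV (median -0.51), and 13 lower and 2 higher of 28 with LPS (median -1.41). Of all tested genes, 14.7% were called lower and 16.2% higher with ENV, and 13.8% and 16.0% with LPS. Ltc4s, the leukotriene synthase gene, had the largest called fall with either stimulus, from 2.61 ± 1.58 and 1.17 ± 1.01 CPM to means below the floor, at 0.0660 and 0.00844 CPM (SD, n = 3). The orphan receptor gene Gpr165 fell next with ENV (-4.57 ± 0.60). Trem2, the lipid-sensing receptor gene, fell from 754 ± 68.9 to 93.8 ± 6.50 CPM with ENV (-2.81 ± 0.13, adjusted p = 1.20e-04) and by 2.60 ± 0.70 with LPS (SD, n = 3 for the levels). The TGF-beta receptor gene Tgfbr1 (-2.06 ± 0.24 and -2.16 ± 0.21) fell with ENV and LPS. Cx3cr1, the fractalkine receptor gene, fell with LPS (-5.15 ± 1.06, adjusted p = 0.0168) and missed the threshold with ENV (-2.24 ± 0.80, adjusted p = 0.0734). Csf1r was called in no treated comparison (0.46 ± 0.18 and -0.12 ± 0.42 in microglia, -1.54 ± 0.77 and -1.68 ± 0.60 in astrocyte cultures). The called rises were the adenosine receptor gene Adora3 (2.62 ± 0.42), the UDP receptor gene P2ry6 (1.52 ± 0.18) and the phagocytic kinase gene Mertk (1.17 ± 0.22) with ENV, and Rnase4 (3.94 ± 0.79) and P2ry6 (1.82 ± 0.15) with LPS.

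In astrocyte cultures 11 of 27 of these genes were called lower and 1 higher with ENV (median -1.14, against 0.02 for all genes), and 5 lower and none higher of 25 with LPS (median -0.83, against 0.03). Of all tested genes, 8.35% were called lower and 9.52% higher with ENV, and 2.69% and 2.64% with LPS. Gpr165 (-4.58 ± 0.77) and Cx3cr1 (-3.10 ± 0.79) had the largest falls with ENV, and the fructose transporter gene Slc2a5 (-3.76 ± 0.86) had the largest with LPS. The rise was Smad3 (0.64 ± 0.14). Trem2 fell with ENV (-3.01 ± 0.87, adjusted p = 0.0472) and missed the threshold with LPS (-3.58 ± 0.88, adjusted p = 0.0573). Tgfbr1, which fell in microglia, was not called in astrocyte cultures (-0.39 ± 0.14 and -0.16 ± 0.14).

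The P2Y12-like receptor family, to which 3 of the 7 genes belong, had 4 tested genes, the fourth being P2ry14, the UDP-glucose receptor gene. P2ry14 was not called in microglia (1.13 with ENV, adjusted p = 0.119) and fell in astrocyte cultures with LPS (-2.91 ± 0.60, adjusted p = 0.0305). Of 13 tested purinergic receptor and ectonucleotidase genes, 5 were called higher and 2 lower with ENV in microglia and 4 higher and 1 lower with LPS. The counts called lower in this list are near or below the shares over all genes (14.7% with ENV, 13.8% with LPS), and those called higher stand beside 16.2% and 16.0%. The adenosine receptor gene Adora2a rose the most (5.61 ± 0.63 with ENV, 5.12 ± 0.65 with LPS), from 0.573 to 24.1 CPM and from 2.03 to 57.4 CPM. The ADP receptor gene P2ry1 fell with both (-2.52 ± 0.32 and -1.79 ± 0.34), as did, with ENV, the ectonucleotidase gene Entpd1 (-0.66 ± 0.12). In astrocyte cultures 1 gene of this list fell with each stimulus, Entpd1 (-1.43 ± 0.37) with ENV and P2ry14 with LPS, and none rose. Of 10 signalling partners of P2Y12 in microglia, 3 rose and 1 fell with ENV and 4 rose and 1 fell with LPS, beside the same shares over all genes. Hcar2, the hydroxycarboxylic acid receptor gene (2.31 ± 0.21 and 4.55 ± 0.42), and the PI3-kinase subunit gene Pik3cg (1.26 ± 0.12 and 1.49 ± 0.31) rose, and the phospholipase gene Plcb2 fell (-1.77 ± 0.15 and -1.98 ± 0.28). In astrocyte cultures Plcb2 fell with ENV (-2.11 ± 0.47), and no partner was called with LPS.

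The lists of genes upstream of the homeostatic program held called genes in both directions, to be read beside the shares over all genes in microglia (16.2% higher and 14.7% lower with ENV, 16.0% and 13.8% with LPS). In astrocyte cultures these shares were 9.52% and 8.35% with ENV and 2.64% and 2.69% with LPS. Of 18 tested microglial transcription factor genes, 5 rose and 4 fell with ENV and 2 rose and 2 fell with LPS in microglia (medians 0.14 and 0.01). Spi1, which encodes the lineage factor PU.1, rose (0.74 ± 0.15 and 0.89 ± 0.15), as did Cebpb (1.74 ± 0.17 and 1.67 ± 0.27), while the repressor genes Bhlhe40 (-3.45 ± 0.28 and -2.57 ± 0.54) and Bhlhe41 (-1.90 ± 0.24 and -2.01 ± 0.27) fell. In astrocyte cultures 5 of 20 rose and 1 fell with ENV, and 3 rose and 1 fell with LPS, led by Klf4 (2.35 ± 0.29 and 1.75 ± 0.24) and Bhlhe41 (-1.25 ± 0.22 and -1.44 ± 0.14). Of 18 TGF-beta pathway genes, 1 rose and 3 fell with ENV and 2 rose and 1 fell with LPS in microglia, near or below the shares over all genes; the SMAD inhibitor genes moved apart, with Skil rising (1.07 ± 0.16 and 1.48 ± 0.36) and Smad7 falling with ENV (-1.31 ± 0.39). In astrocyte cultures 4 of 18 rose and 1 fell with ENV, and 1 rose with LPS; Itgb8, the integrin subunit gene that activates TGF-beta, rose with ENV (1.71 ± 0.35) and Skil with both (1.20 ± 0.19 and 1.05 ± 0.16). On the CSF1 receptor axis, 2 of 6 tested genes rose and 1 fell with ENV in microglia, and 3 of 7 rose and 1 fell with LPS. Csf1 itself fell in microglia (-2.00 ± 0.35 and -1.33 ± 0.36) and rose in astrocyte cultures (1.75 ± 0.23 and 1.67 ± 0.36), where it was 1 of 2 rises among 8 genes with each stimulus, the other being Csf2 (7.58 ± 0.95 and 7.28 ± 1.22). Csf2rb, the shared receptor subunit gene, rose in microglia (3.39 ± 0.21 and 2.93 ± 0.22).

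Levels across the 12 microglial libraries were compared gene by gene. Pearson's r of log2 CPM was 0.97 between P2ry12 and P2ry13, 0.93 between P2ry12 and Gpr34 and 0.90 between Gpr34 and Sall1, while Tmem119 had r of -0.14 to -0.09 with the 3 receptors and 0.74 with Olfml3. Without the LPS and H2O replicates 3, the Tmem119 values were -0.31 with P2ry12, -0.49 with P2ry13, -0.28 with Gpr34 and 0.76 with Olfml3. These 12 points share treatment and library set, so the values describe the libraries only. Of 8368 genes with a mean of at least 10 CPM, those closest to each of the 7 were Slc46a3, Selenop and Blnk for P2ry12 (r = 0.99 each), Prrt1, Galnt11 and Rnf166 for P2ry13 (0.99 each), and Cd53, Cytip and Snx5 for Gpr34 (1.00, 0.99 and 0.99). They were Rnf220, Poc1b and Chd1l for Sall1 (0.98, 0.98 and 0.97), Uba6, Atp13a3 and Dgkd for Mef2c (0.96, 0.96 and 0.96), Acat2, Cnn3 and Adgrb2 for Tmem119 (0.92 each) and Pigk, Acsbg1 and Pdap1 for Olfml3 (0.88, 0.87 and 0.85). Without the LPS and H2O replicates 3, other genes took most of these places: Cd53 stayed among the 3 closest to Gpr34, and Chd1l and Rnf220 among those closest to Sall1, while P2ry12 then had Cd53 and Gpr34 as its closest (r = 1.00 and 0.99).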

How the data were processed

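Messenger RNA was measured in 28 libraries of primary rat microglia and astrocyte cultures in 8 groups. The authors deposited raw counts, as whole numbers per gene symbol and library. The submitters' processing notes name HISAT2, the assembly mRatBN7.2 and StringTie 1.3.3b; no source used here gives their roles, the annotation or the strand of counting. The 3 gene tables were joined by symbol. CPM are counts per 1000000 of a library's total. Groups were compared with edgeR's quasi-likelihood test (2-sided F test; edgeR 4.0.16, limma 3.58.1, R 4.3.3; TMM, filterByExpr, robust fit), with Benjamini-Hochberg adjustment over all genes tested and a call at an adjusted p under 0.05; interaction terms gave differences between responses. The per-marker fit used the summed counts of 20 core markers as library size. Nothing says that replicates came from separate animals, so p-values measure only the spread of these samples, which may be technical. Alternatives were DESeq2 1.42.0, no filter, a replicate block, joint fits and 8 core markers. Others used replicates 1 and 2 or 3 and 4 only, or left out libraries. Of these alternatives, 2 drop both microglial replicates 3 from interaction tests and were chosen after seeing the data. The same libraries were also left out of an alternative microglial LPS test and of alternative correlations. They stood apart in several of the genes described here, so leaving them out there rests on the data too. The scripts were tested on simulated data.

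The 7 genes and all lists were chosen with earlier results of these data known. Named besides the 7 were the 3 genes closest to each by correlation over the microglial libraries (log2 CPM, prior count 2), from each list up to 2 called genes with the largest rise and fall per treated comparison, and Trem2, Cx3cr1, Csf1r, Spi1 and Tgfbr1; some genes that the rule names are not reported here. Mertk, and Med12l and Cask as overlapping genes, are outside that rule and were named after their values were seen. Titles number the replicates. Same-numbered vehicle and treated libraries deviated together from their group means, with a correlation over genes above 0.1 in every pair. It was 0.317 to 0.511 in microglia and 0.260 to 0.636 in astrocyte cultures. Each library correlated best with its own number except replicate 2 of the astrocyte LPS set (0.529 against 0.531 with another number). The other pairs of that set reached 0.282 to 0.397 with another number. The numbers were therefore taken to pair the samples, but only the replicate block used this pairing. The main tests and the fits that leave out libraries ignored it.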

Additional observations from a re-analysis of the deposited data

Results flagged for a closer look

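Of the 7 genes, 3 had responses that differed between the 2 cultures by an interaction term in edgeR, in tests that called 14.9% of all genes with ENV and 12.5% with LPS. P2ry13 with ENV: the microglial log2 change (-0.36) exceeded that in astrocyte cultures (-3.79) by 3.42 ± 0.86 (adjusted p = 0.0183). Astrocyte libraries with ENV held 0 to 13 counts of P2ry13. Sall1 differed by -0.82 ± 0.17 with ENV (adjusted p = 0.00673) and by -1.96 ± 0.32 with LPS (adjusted p = 0.00254), having fallen in microglia with a change of -0.92 and -2.08 against -0.10 and -0.14 in astrocyte cultures. Mef2c differed by -1.07 ± 0.32 with LPS (adjusted p = 0.0474). That call was lost without any 1 of 11 libraries (highest adjusted p 0.108) and with no filter on low counts (0.0502), and it was made without both microglial replicates 3 (0.0221), a choice made after seeing the data. No group of 4 libraries had a library that stood apart from the other 3 by Dixon's criterion in any of the 7 genes; groups of 3 were not tested.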

How the results depend on the processing

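For log2 changes of the 7 genes, 1102 of 1186 alternative values kept their side of the threshold, 57 lost a call and 26 gained one. The remaining 1 reversed: Tmem119 in unstimulated microglia minus astrocyte cultures of the H2O set. It was 0.09 with all libraries and -1.35 (adjusted p = 0.0431) without microglia H2O replicate 3 (-1.35 to 0.54 leaving out single libraries). The causes of these changes were not tested. Among the 1102, 64 changed sign without being called in either fit. Beside the main counts given in the text, the numbers of the 7 genes called were 6 in microglia with LPS without both replicates 3, 0 in astrocyte cultures with ENV with replicates 1 and 2 only, 6 (ENV) and 7 (LPS) per core marker RNA with the replicate block, 0 with ENV with 8 core markers, and 1 for the LPS difference between cultures with no filter. Leaving out single libraries gave 3 to 4 (microglia, ENV), 2 to 5 (microglia, LPS), 1 to 3 (astrocyte cultures, ENV), 0 to 1 (LPS), 0 to 2 and 1 to 3 (per core marker RNA, ENV and LPS), 2 to 4 and 1 to 2 (difference between cultures, ENV and LPS), and 0 to 1 (microglial vehicles). The numbers of all genes called that moved by over 1.5 times were as follows. The replicate block gave 4348 (main 2670) and 2611 (785) in astrocyte cultures with ENV and LPS, and 10604 (245) and 11438 (487) per core marker RNA; beside P2ry12 and the per-marker calls named in the text, it changed no other call of the 7 genes. DESeq2 gave 2049 (astrocyte cultures, LPS), 67 (microglia, ENV minus LPS), 2720 (LPS difference between cultures, main 1656) and 682 (microglial vehicles). In astrocyte cultures, replicates 1 and 2 only gave 372 with ENV and 2970 with LPS, replicates 3 and 4 only 950 with ENV, and the joint fit 1736 with LPS. With 8 core markers 83 genes were called, with no filter 1 in the microglial vehicles, and without both replicates 3 of the LPS set 8 in microglia (ENV minus LPS). Leaving out single libraries gave 2466 to 5282 and 1351 to 3986 in microglia (ENV and LPS), 1487 to 2869 and 236 to 681 in astrocyte cultures, 117 to 598 and 318 to 2612 per core marker RNA, 0 to 4 for ENV minus LPS in microglia and 0 to 1650 for the microglial vehicles. Depth limits Olfml3 in microglia and P2ry13 in treated astrocyte cultures, which rest on a few counts a library.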
